A study of Rattus norvegicus with 6 samples.

Results

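Genes that build the kinetochore, the mitotic spindle and condensin were followed in 6 RNA-seq libraries of primary rat brain microvascular endothelial cells (rBMECs), which form the inner wall of brain capillaries and, through their tight junctions, the blood–brain barrier. The genes were given by name, 46 in all, and a gene was a member where its symbol stood in the deposited count table. By that rule 45 members were found among the 33566 genes of the table, and Cenpq had no row under its own symbol. The Hcy group was 3 libraries of cells given homocysteine (Hcy) at 100 μM for 24 h, and the Veh group was 3 libraries of cells given sterile water. The treatment text of the same labels also names a prepared Hcy solution of 50 μM. All cells were isolated with a kit from the cerebral cortex of SD rats aged 18 to 22 days, purified with a selective solution in culture and passaged once before treatment. The submitters call the libraries biological replicates without naming the isolation behind each, so p-values measure the spread between these libraries, which may be technical. The comparison asks whether the transcripts of the cell division machinery differed after Hcy.

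In a dividing cell the centromere of each chromosome carries a kinetochore, which is built on nucleosomes with the histone Cenpa. Its inner layer, the constitutive centromere-associated network, stays on the DNA through the cell cycle, and its outer layer, with the Ndc80 complex, grips the microtubules of the spindle in mitosis. The spindle checkpoint holds back the anaphase-promoting complex until every kinetochore is attached. Condensin and topoisomerase II compact and untangle the chromosome arms. The transcripts of most of these proteins are scarce in resting cells and abundant in G2 and mitosis, and endothelial cells of the adult brain seldom divide, whereas endothelial cells in culture do.

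Libraries held 14024997 to 16764584 counts. A count of 3, taken as the floor, was worth 0.178 to 0.215 CPM (counts scaled to a common library size with TMM factors), which covers counting error only. All 45 members had at least 10 counts in the Veh libraries alone and were tested, and their summed counts over the 6 libraries lay between 125 and 7443. Veh replicate 3 stood apart from the other Veh libraries: the second principal component of the log2 CPM placed it at 24.9, and Veh replicates 1 and 2 at -18.4 and -23.3. Calls on members are given with and without it. The endothelial label was checked against 10 markers, of which 9 were in the table and Pecam1 had no row under that symbol. Their summed level was 8944 to 9400 CPM in Hcy and 7254 to 8543 CPM in Veh. With all libraries and the minimum of 10 summed counts, 0 of the 9 passed edgeR's quasi-likelihood test at an adjusted p of 0.05. Without Veh replicate 3, 3 of them passed by edgeR, in a fit where 6.67% of all genes passed. Kdr (adjusted p 0.0325) and Vwf (0.0118) were higher in Hcy, and Tek (0.0167) was lower. With all libraries, Vwf passed by DESeq2 (adjusted p 0.0104) and by edgeR without a filter on low counts (0.0490). The 9 markers of pericytes and smooth muscle cells summed to 679 to 707 CPM in Hcy and 1123 to 1352 CPM in Veh. Of these, 3 passed with lower levels in Hcy, namely Tagln (log2 fold change -0.88), Acta2 (-0.64) and Cnn1 (-1.39), which encode contractile proteins. Tagln and Cnn1 also passed with any single library left out, whereas Acta2 did not pass without Hcy replicate 1, 2 or 3 or Veh replicate 1 (adjusted p 0.0816 to 0.146 by edgeR). The sums are nearly all Tagln and Acta2, and 4 of the 9 genes (Pdgfrb, Rgs5, Cspg4 and Abcc9) had log2 fold changes above 0. Pericyte markers at low levels did not pass and went both ways. Pdgfrb was at 1.79 to 3.63 CPM in Hcy and 1.21 to 2.35 CPM in Veh (log2 fold change 0.73). Rgs5 was at 0.298 to 0.605 CPM and 0.0692 to 0.255 CPM (1.26), and Cspg4 at 0.537 to 1.15 CPM and 0.191 to 0.297 CPM (1.66). Kcnj8 was at 0.239 to 0.403 CPM in Hcy and 0.416 to 0.828 CPM in Veh (-0.99). In Rgs5 and Cspg4 every Hcy library was above every Veh library, and in Kcnj8 every Hcy library was below, at levels near the floor. The 4 fibroblast markers in the table, where Col1a2 had no row, summed to 35.7 to 57.8 CPM in Hcy and 57.5 to 83.9 CPM in Veh. Astrocyte markers summed to 113 to 116 CPM in Hcy and 125 to 150 CPM in Veh, nearly all of it Gja1, which passed by edgeR only without Veh replicate 3 (adjusted p 0.00585), with Aqp4 and Slc1a2 at 0 in every library. Neuronal markers summed to 6.85 to 9.77 CPM in Hcy and 5.22 to 7.30 CPM in Veh, with Rbfox3 and Snap25 at 0 in every library. Microglial markers stayed under 1 CPM in each library, with Cx3cr1 and Ptprc at 0, and those of the oligodendrocyte lineage summed to 10.6 to 12.4 CPM, mostly Mog. The part of these other cells in the results on mitotic genes was not tested.

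Transcripts of the division machinery were mostly higher in Hcy. Of the 45 members, 41 had a log2 fold change above 0, as had 46.9% of the 14603 genes tested. The median log2 fold change of the members was 0.37, with a range of -0.41 to 1.21, and that of all genes was -0.02. Kif4a, Cenph, Ncaph and Top2a rose, which is 4 members or 8.89% with an adjusted p of at most 0.05 in edgeR's quasi-likelihood test and a higher level in Hcy, beside 1.32% of all genes tested in that direction and 2.34% in either. No member passed with a lower level, beside 1.01% of all genes, and at an unadjusted p of at most 0.05 the count was 0 lower and 21 higher, beside 5.95% and 7.44% of all genes. DESeq2 also called 0 members lower. Kif4a and Cenph also had a log2 fold change of at least 1 and were called differentially expressed, as were 0.253% of all genes in this direction, 0.233% in the other and 0.486% in either. In 24 members, 53.3%, every Hcy library was above every Veh library, beside 10.8% of all genes. In the other 21 the groups overlapped, and in 0 members was every Hcy library below every Veh library, beside 9.27% of all genes. In bulk libraries, a larger share of cells in division and more RNA per dividing cell cannot be told apart. A larger share would also not show that more cells divided. The study reports that Hcy suppressed the proliferation of rBMECs in a cell counting assay, read later than the RNA, and increased apoptosis. How those assays relate to the transcript levels was not tested.

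**Figure D1:**
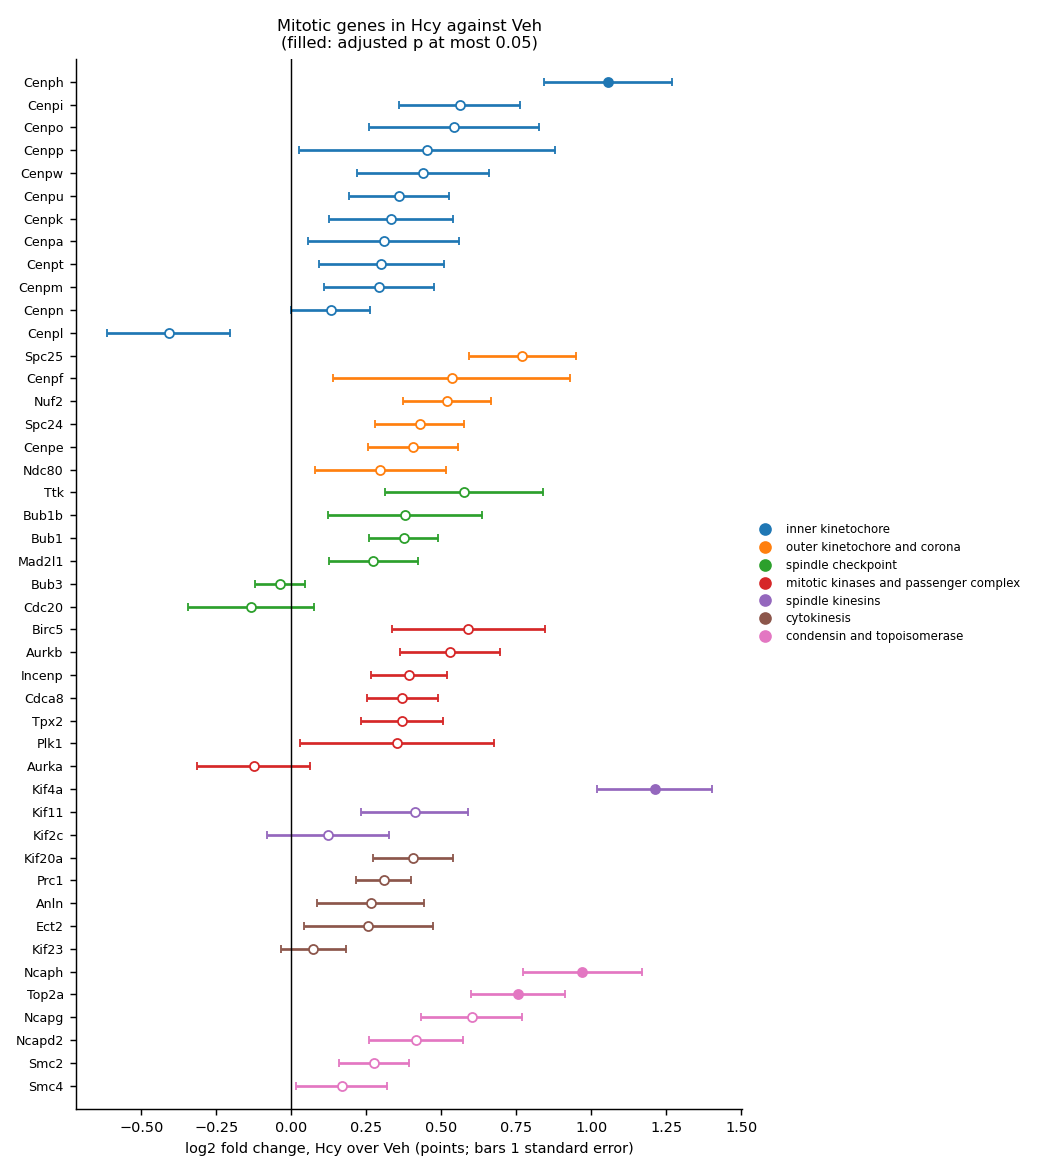
Log2 fold change of Hcy over Veh (horizontal axis) for the 45 members (vertical axis), coloured by role, with bars of 1 standard error. Filled points mark the 4 members with an adjusted p of at most 0.05, Kif4a, Cenph, Ncaph and Top2a, and 41 of the 45 points lie to the right of 0.

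The number of members that passed changed when single libraries were left out. When Hcy replicate 1, 2 or 3 or Veh replicate 1 or 2 was left out, edgeR passed 0 members, beside 0.557% to 1.05% of all genes in those fits, and when Veh replicate 3 was left out it passed 8, beside 6.67% of all genes. Those 8 were the 4 above together with Cenpk, Nuf2, Spc24 and Cdca8. Over the same 6 fits, 40 to 43 members were higher in Hcy and their median log2 fold change was 0.31 to 0.44. The lowest median was that without Veh replicate 1, the library with the lowest level of 26 members.

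Kif4a, a chromokinesin that binds chromosome arms and the central spindle, had the largest log2 fold change of the members. Its gene is listed on chromosome X from 70461718 to 70561189, plus strand (ENSRNOG00000038035). The table names no build, and its AABR07 row names belong to an assembly older than the mRatBN7.2 of the study's methods, so listed positions may not be mRatBN7.2. Counted reads were 104, 83 and 99 over Hcy replicates 1 to 3, in that order as in all series of values here, against 48, 42 and 38 over those of Veh. In CPM these were 7.47, 5.58 and 5.91 in Hcy and 2.85, 2.68 and 2.63 in Veh. The Veh libraries were nearly level, and the lowest Hcy library was well above all of them. Kif4a rose 2.32-fold, from 2.72 ± 0.116 to 6.32 ± 1.01 CPM (SD, n = 3 each), a log2 fold change of 1.21 ± 0.19 (SE) with an adjusted p of 0.0142 in edgeR's quasi-likelihood test. Without single libraries the log2 fold change was 1.08 to 1.29, and the adjusted p by edgeR was 0.0113 without Veh replicate 3 and 0.0503 to 0.0779 without any other library. Per kilobase of transcript its level was 0.576 CPM in Veh, rank 44 of the 45 members, and 1.34 CPM in Hcy, rank 38. The other kinesins named for the spindle did not pass. Kif11, the motor that pushes spindle poles apart, was at 4.60, 5.31 and 5.37 CPM in Hcy and 3.62, 4.27 and 3.60 CPM in Veh, without overlap (log2 fold change 0.41 ± 0.18, adjusted p 0.365 by edgeR). Kif2c, a microtubule depolymerase at centromeres, had overlapping groups of 3.22 to 3.88 CPM in Hcy and 2.74 to 3.50 CPM in Veh (0.12 ± 0.20).

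**Figure D2:**
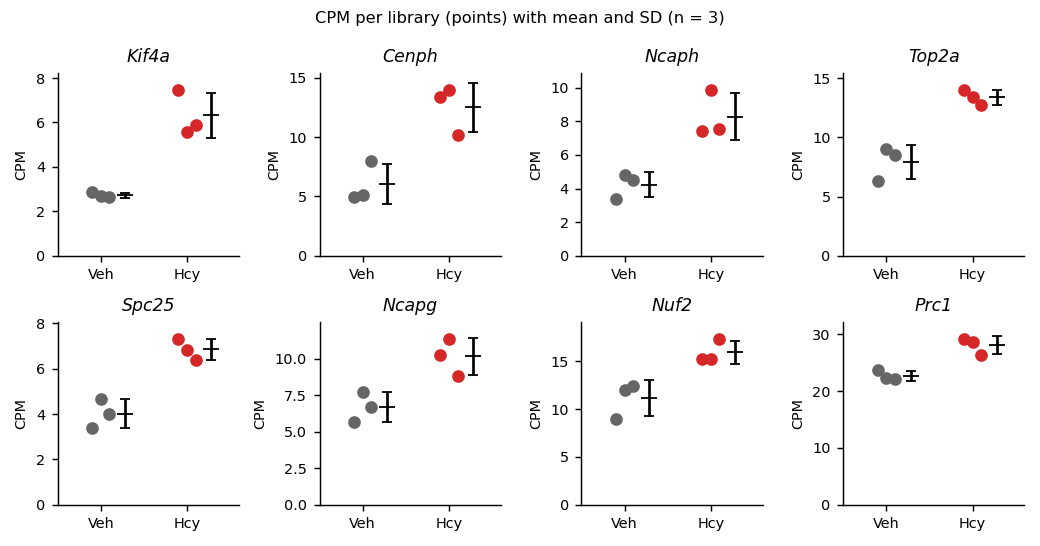
Level of the 8 members with the smallest p in each library (points, CPM, vertical axis from 0) by group (horizontal axis), with a line at the mean and bars of 1 SD over 3 libraries. For Kif4a, Cenph, Ncaph and Top2a all 3 Hcy points lie above all 3 Veh points.

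The 12 inner kinetochore members had a median log2 fold change of 0.35, and 11 of them were higher in Hcy, with Cenph passing. Cenph, a subunit of the complex that links centromeric nucleosomes to the outer kinetochore, is listed on chromosome 2 from 30766590 to 30780121, minus strand (ENSRNOG00000018615). It had 186, 208 and 170 counts in Hcy and 84, 80 and 115 in Veh. Its levels were 13.4, 14.0 and 10.1 CPM in Hcy and 4.99, 5.10 and 7.96 CPM in Veh. Veh replicate 3 was the highest Veh library and Hcy replicate 3 the lowest Hcy library, and the groups did not overlap. Cenph rose 2.08-fold, from 6.01 ± 1.69 to 12.5 ± 2.05 CPM (SD, n = 3 each), a log2 fold change of 1.06 ± 0.21 with an adjusted p of 0.0406 in edgeR's quasi-likelihood test. The adjusted p by edgeR was 0.00232 without Veh replicate 3 and 0.0809 to 0.165 without any other library, over log2 fold changes of 0.94 to 1.31. Its level per kilobase moved from rank 11 of the members in Veh to rank 6 in Hcy.

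Partners of Cenph in the same complex had smaller differences. Cenpi was at 5.67, 5.31 and 6.33 CPM in Hcy and 3.09, 4.72 and 3.95 CPM in Veh, without overlap (log2 fold change 0.56 ± 0.20, adjusted p 0.248 by edgeR). Cenpk, the inner kinetochore member with the highest level per kilobase in Veh (6.19 CPM), was at 13.4, 12.3 and 12.7 CPM in Hcy and 7.42, 9.30 and 13.8 CPM in Veh. Here Veh replicate 3 was above every Hcy library, and the log2 fold change was 0.33 ± 0.21 with an adjusted p of 0.561 by edgeR. Cenpk overlaps Ppwd1 on the opposite strand, and the sources used here do not state whether counting used strand, so reads could be shared. The same holds for Cenpn with Cmc2 and for Cenpo with Adcy3. It also holds for Cenpp (127 summed counts) with LOC100910978 (88) and AC111847.1 (1). The remaining inner kinetochore members, Cenpa, Cenpm, Cenpn, Cenpo, Cenpp, Cenpt, Cenpu and Cenpw, had log2 fold changes of 0.13 to 0.54, and none passed. Cenpl, which binds centromeric nucleosomes together with Cenpn, was the member with the lowest log2 fold change (-0.41 ± 0.21, adjusted p 0.459 by edgeR) and is named after its values were seen. It was at 6.46, 4.50 and 7.58 CPM in Hcy and 7.90, 7.45 and 9.34 CPM in Veh, where Hcy replicate 3 lay above Veh replicate 2. The row listed as AABR07066944.1, whose protein match in the deposited description is centromere protein Q, was at 4.24, 5.10 and 5.13 CPM in Hcy and 2.37, 3.19 and 5.12 CPM in Veh, a log2 fold change of 0.45 ± 0.28. It was matched after the data were seen and is outside the counts above.

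All 6 outer kinetochore and corona members were higher in Hcy, with a median log2 fold change of 0.47, and none passed edgeR's test. The nearest to the threshold was Spc25, a subunit of the Ndc80 complex. It was at 7.33, 6.85 and 6.39 CPM in Hcy and 3.38, 4.65 and 4.01 CPM in Veh. The groups stood well apart, with a fold of 1.71, a log2 fold change of 0.77 ± 0.18 and an adjusted p of 0.0672 by edgeR's quasi-likelihood test, and DESeq2 gave 0.0334. Nuf2, which pairs with Ndc80 in the same complex, was at 15.3, 15.2 and 17.4 CPM in Hcy and 9.02, 12.0 and 12.5 CPM in Veh, without overlap (0.52 ± 0.15, adjusted p 0.131 by edgeR). Spc24, the partner of Spc25, was at 12.4, 12.3 and 11.8 CPM in Hcy and 8.13, 8.09 and 10.9 CPM in Veh, also without overlap (0.43 ± 0.15, adjusted p 0.227 by edgeR). Per kilobase Spc24 had the highest level of this layer, 10.4 CPM in Veh and 14.0 CPM in Hcy. Of the other 3, the kinesin Cenpe had no overlap between groups, whereas Ndc80 and the corona protein Cenpf overlapped. Their log2 fold changes were 0.41, 0.30 and 0.53, and without single libraries they were 0.35 to 0.50, 0.10 to 0.45 and 0.028 to 0.79. Cenpf was the member with the lowest level per kilobase in Veh, 0.208 CPM.

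The 6 spindle checkpoint members had a median log2 fold change of 0.32, with 4 higher and 2 lower in Hcy and none passing. The median was 0.17 without Hcy replicate 2 and 0.21 without Veh replicate 1. Bub1, the kinase that recruits the checkpoint to kinetochores, was at 13.9, 12.8 and 14.0 CPM in Hcy and 10.7, 10.8 and 9.83 CPM in Veh. Both groups were tight and did not overlap, yet the difference was small (0.37 ± 0.11, adjusted p 0.168 by edgeR). Ttk, the kinase that starts checkpoint signalling, was at 5.39, 7.19 and 6.27 CPM in Hcy and 2.61, 5.22 and 4.85 CPM in Veh, with Veh replicate 1 far below the others (0.58 ± 0.26, adjusted p 0.393 by edgeR). Bub3, the scaffold that binds Bub1 and Bub1b, had the highest level per kilobase of all members, 30.0 CPM in Veh and 29.2 CPM in Hcy. Its levels were 79.9, 77.0 and 81.6 CPM in Hcy and 77.4, 77.5 and 89.8 CPM in Veh, overlapping, with a log2 fold change of -0.04 ± 0.08 that became 0.037 without Veh replicate 3. Cdc20, the activator of the anaphase-promoting complex that the checkpoint holds back, overlapped as well, at 5.37 to 6.54 CPM in Hcy and 4.84 to 8.17 CPM in Veh, and its log2 fold change of -0.13 ± 0.21 became 0.038 without Veh replicate 3. Bub1b and Mad2l1 had log2 fold changes of 0.38 and 0.27.

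Of the 7 mitotic kinases and chromosomal passenger members, 6 were higher in Hcy, with a median of 0.37, and none passed. The passenger complex joins the kinase Aurkb to Incenp, Birc5 and Cdca8 and corrects faulty attachments. Aurkb was at 15.4, 11.5 and 10.7 CPM in Hcy and 8.61, 7.84 and 9.55 CPM in Veh, without overlap (0.53 ± 0.17, adjusted p 0.183 by edgeR). Cdca8 was at 27.4, 26.4 and 25.1 CPM in Hcy and 18.6, 18.7 and 23.7 CPM in Veh, with Veh replicate 3 close below the Hcy libraries (0.37 ± 0.12, adjusted p 0.19 by edgeR). All 4 subunits of the passenger complex had each Hcy library above each Veh library, with log2 fold changes of 0.39 for Incenp and 0.59 for Birc5. Tpx2, the spindle assembly factor that activates Aurka, was also separated by group, at 16.0 to 18.2 CPM in Hcy and 11.2 to 15.4 CPM in Veh. Aurka itself, the spindle pole kinase, overlapped, at 5.85 to 8.62 CPM in Hcy and 6.83 to 8.67 CPM in Veh, with a log2 fold change of -0.13 ± 0.19. Plk1 was low in every library, at 1.97 to 2.23 CPM in Hcy and 1.01 to 2.28 CPM in Veh.

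All 5 cytokinesis members had a log2 fold change above 0, with a median of 0.26, and none passed. Prc1, which bundles the microtubules of the central spindle and is a partner of Kif4a there, was at 29.2, 28.7 and 26.3 CPM in Hcy and 23.7, 22.2 and 22.1 CPM in Veh. Its groups were tight and did not overlap (0.31 ± 0.09, adjusted p 0.157 by edgeR), and it had the highest level per kilobase of this role, 7.75 CPM in Veh. Kif20a, a kinesin of the central spindle, was at 13.4, 14.9 and 11.6 CPM in Hcy and 10.3, 9.43 and 10.3 CPM in Veh, without overlap (0.40 ± 0.13, adjusted p 0.199 by edgeR). Kif20a overlaps Cdc23 on the opposite strand, which had 4650 summed counts, so reads could be shared. Kif23, Ect2 and Anln overlapped between groups, with log2 fold changes of 0.07, 0.26 and 0.26, and that of Kif23 became -0.0012 without Veh replicate 1. Anln has a further row with the same protein match (AABR07028352.1, 373 summed counts), between which reads could be split.

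The 6 members of condensin and topoisomerase had a median log2 fold change of 0.51, and Ncaph and Top2a rose. Ncaph, the kleisin subunit that closes the ring of condensin I, is listed on chromosome 3 from 119583648 to 119611136, minus strand (ENSRNOG00000012051). It had 103, 147 and 126 counts in Hcy and 57, 75 and 65 in Veh, or 7.40, 9.87 and 7.52 CPM and 3.38, 4.78 and 4.50 CPM. The lowest Hcy library was above the highest Veh library, and Ncaph rose 1.96-fold, from 4.22 ± 0.738 to 8.26 ± 1.40 CPM (SD, n = 3 each; log2 fold change 0.97 ± 0.20, adjusted p 0.0416 by edgeR's quasi-likelihood test). Top2a, which passes DNA strands through each other to untangle sister chromatids, is listed on chromosome 10 from 86901007 to 86932154, minus strand (ENSRNOG00000053047). It had 195, 200 and 213 counts in Hcy and 106, 141 and 123 in Veh, or 14.0, 13.4 and 12.7 CPM and 6.29, 8.98 and 8.51 CPM. Its Hcy libraries were level and its Veh libraries spread, with no overlap, and Top2a rose 1.69-fold, from 7.93 ± 1.44 to 13.4 ± 0.647 CPM (log2 fold change 0.76 ± 0.16, adjusted p 0.0432 by edgeR's quasi-likelihood test). Without Veh replicate 3 the adjusted p by edgeR was 0.0220 for Ncaph and 0.0178 for Top2a, and without any other library it was 0.0839 to 0.162 and 0.0753 to 0.179.

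The other condensin I subunits had smaller values. Ncapg, a HEAT-repeat subunit, and Ncapd2, the other one, had log2 fold changes of 0.60 and 0.42, and their groups did not overlap. The ATPase subunits Smc2 and Smc4, which condensin I shares with condensin II, had log2 fold changes of 0.28 ± 0.12 and 0.17 ± 0.15. Without single libraries these were 0.14 to 0.36 and 0.055 to 0.31. Smc4 had the highest level per kilobase of this role, 9.08 CPM in Veh and 10.2 CPM in Hcy, and it was the only 1 of the 6 whose groups overlapped, at 35.3, 49.8 and 44.6 CPM in Hcy and 33.0, 36.7 and 45.8 CPM in Veh (adjusted p 0.711 by edgeR). Among the subunits particular to condensin II, which are no members and are named here after their values were seen, Ncapg2, Ncapd3 and Ncaph2 had log2 fold changes of 0.44 ± 0.16, 0.36 ± 0.12 and 0.11 ± 0.08.

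Averaged over the members, every Hcy library lay above every Veh library, although the groups overlapped in 21 single members. Each member's log2(CPM + 0.1) was centred on its mean over the 6 libraries and averaged over the 45 members, which gave 0.17, 0.25 and 0.16 in Hcy replicates 1 to 3 and -0.34, -0.14 and -0.09 in Veh replicates 1 to 3. The summed level of the members was 568, 608 and 568 CPM in Hcy and 437, 478 and 517 CPM in Veh. The Veh libraries were thus spread more widely than the Hcy libraries, with Veh replicate 1 lowest and Veh replicate 3 nearest to Hcy. Hcy replicate 2 was the highest of the 6 libraries in 18 members, Hcy replicate 1 in 12 and Hcy replicate 3 in 9, and Veh replicate 3 was highest in 5. Veh replicate 1 was the lowest in 26 members, Veh replicate 3 in 10 and Veh replicate 2 in 6. Within Veh, replicate 3 was the highest library in 21 members (46.7%), beside 40.5% of all genes tested.

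**Figure D3:**
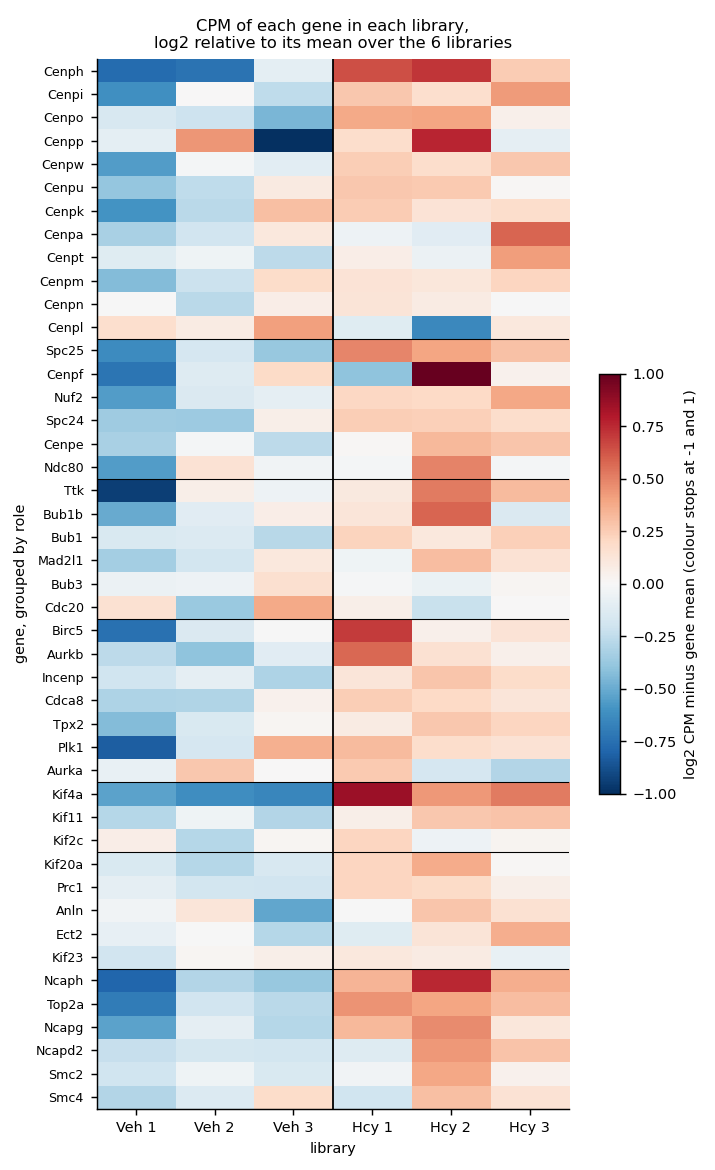
Level of each of the 45 members (rows, grouped by role) in each of the 6 libraries (columns), as log2 CPM minus the member's mean over the libraries (colour). Most rows are above their mean in the Hcy columns, and Veh replicate 1 is the lowest library in 26 of them.

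**Figure D4:**
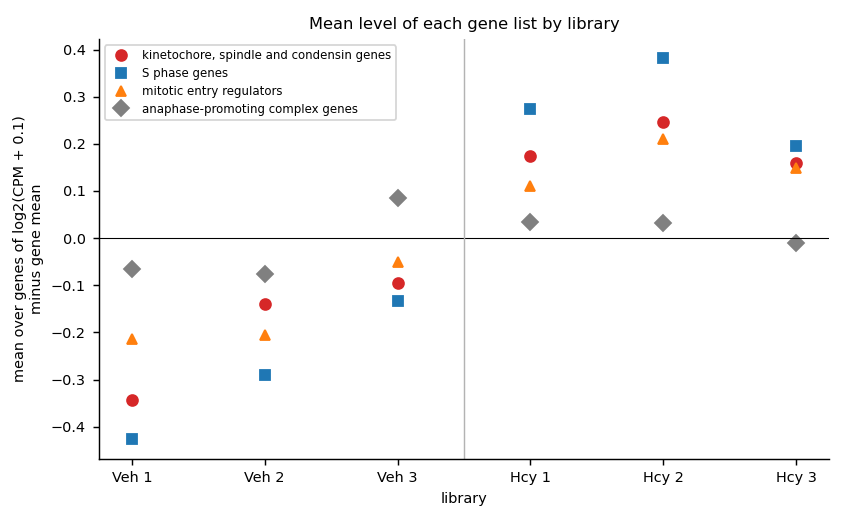
Mean over genes of log2(CPM + 0.1), each gene centred on its mean over the 6 libraries (vertical axis), in each library (horizontal axis), for the members (circles), S phase genes (squares), mitotic entry regulators (triangles) and the anaphase-promoting complex (diamonds). For the members the Hcy points lie at 0.16 to 0.25 and the Veh points at -0.34 to -0.09.

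Other genes of mitosis were taken from lists that hold no member. Of 22 other kinetochore genes, 20 were higher in Hcy (median 0.27), and 1 passed: Kntc1, part of the complex that brings dynein to kinetochores, rose from 23.2, 22.6 and 19.2 CPM in Veh to 34.2, 42.5 and 30.1 CPM in Hcy (log2 fold change 0.72 ± 0.14, adjusted p 0.0336 by edgeR). Its adjusted p by edgeR was 0.0204 without Veh replicate 3 and 0.0634 to 0.121 without any other library. Of 23 rows for other spindle and cytokinesis genes, which hold Spag5 under 2 gene identifiers and so stand for 22 genes, 20 were higher (median 0.26) and none passed. The smallest p among them was that of Spag5, a spindle pole protein, at 6.25, 7.32 and 7.16 CPM in Hcy and 4.27, 3.95 and 4.29 CPM in Veh in the row with more counts (0.73 ± 0.16, adjusted p 0.0535 by edgeR). This row passed by DESeq2 (adjusted p 0.0373), by edgeR with filterByExpr (0.0448) and by edgeR without Veh replicate 3 (0.0381). Tacc3, a spindle protein named here after its values were seen, passed in the last of these (0.0233), beside 6.67% of all genes in that fit. The 13 cohesin, condensin II and separase genes had a median of 0.14 with 9 higher. The cohesin ATPase Smc1a was the 1 that passed, rising from 120, 118 and 117 CPM in Veh to 144, 162 and 154 CPM in Hcy (0.37 ± 0.07, adjusted p 0.0311 by edgeR). For Smc1a the adjusted p by edgeR was 0.0097 without Veh replicate 3 and 0.0810 to 0.169 without any other library.

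The anaphase-promoting complex is the ubiquitin ligase that ends mitosis. Of 18 genes listed for it, which include Ube2c, Ube2s, Fzr1 and Fbxo5 beside the subunits, 7 were higher and 11 lower in Hcy. The median log2 fold change was -0.0041 and none passed. The mean centred log2(CPM + 0.1) of the list was 0.03, 0.03 and -0.01 in Hcy and -0.06, -0.08 and 0.09 in Veh, so that each Hcy library lay above Veh replicates 1 and 2 and below Veh replicate 3. The median stayed near 0, at 0.0042 without Veh replicate 3. The smallest p in the list was that of Ube2c, a ubiquitin-conjugating enzyme of the complex, at 4.81, 4.30 and 5.49 CPM in Hcy and 2.20, 2.87 and 4.01 CPM in Veh, without overlap (0.69 ± 0.25, adjusted p 0.247 by edgeR). Ube2c passed without Veh replicate 3 (adjusted p 0.0448 by edgeR), the only pass of the 18, beside 6.67% of all genes in that fit. Among 14 genes listed as mitotic entry regulators, 11 were higher (median 0.31) and 1 passed. The other 3, named after their values were seen, were near 0: Ccnb1 (-0.05), Cdc25b (-0.06) and Lin54 (-0.02). Mybl2, a transcription factor of the genes of G2 and mitosis, was the 1 that passed and rose from 12.7, 11.6 and 12.8 CPM in Veh to 21.6, 22.4 and 20.5 CPM in Hcy (0.80 ± 0.10, adjusted p 0.00781 by edgeR). With single libraries left out Mybl2 passed 5 times of 6, the exception being the fit without Hcy replicate 1 (adjusted p 0.0521 by edgeR). Without Veh replicate 3, 3 genes of this list passed (Mybl2, Cdk1 and Mki67), beside 6.67% of all genes. Of 20 S phase genes, 19 were higher, the median was 0.59, and 10 passed, all higher in Hcy. The 10 were the replicative helicase genes Mcm2, Mcm3, Mcm4, Mcm5, Mcm6 and Mcm7 with Cdc45, Pcna, Pola1 and Rrm1, at log2 fold changes of 0.48 to 0.80. The smallest p was that of Mcm4, at 86.0, 93.1 and 83.6 CPM in Hcy and 53.6, 54.8 and 53.5 CPM in Veh (0.70 ± 0.07, adjusted p 0.00242 by edgeR). Without Veh replicate 3 the count was 14, beside 6.67% of all genes, and without any other library it was 4, beside 0.557% to 1.05%. Mcm2, Mcm4 and Mcm5 passed in all 6 of those fits, whereas Mcm6, Mcm7, Pcna, Rrm1 and Pola1 passed only in the fit without Veh replicate 3. With all libraries, no gene passed with a lower level in any of the 6 lists.

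**Figure D5:**
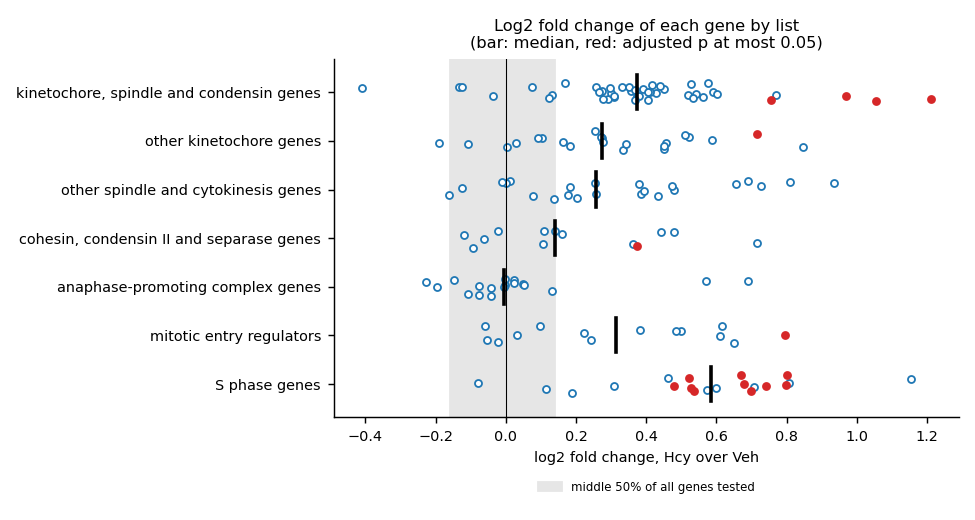
Log2 fold change of Hcy over Veh (horizontal axis) of each gene (points) in the members and the 6 other lists (vertical axis), with a bar at each median and red points for an adjusted p of at most 0.05. The median is 0.37 for the members, 0.59 for S phase genes and -0.0041 for the anaphase-promoting complex, and the grey band is the middle 50% of all genes tested.

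Promoters of genes expressed in G2 and mitosis often carry the cell cycle homology region, with the core TTTGAA or its variant TTTAAA, which the DREAM and Mybl2 complexes bind, and CCAAT boxes, which NF-Y binds. The promoters of the 4 members that rose are printed because they show which of these letters each holds. They are RefSeq sequences of the GRCr8 build, 300 bases from 250 before to 50 after the annotated start, 5′ to 3′ on the strand of the gene, with capitals marking each match to a core (TTTGAA and its variant TTTAAA) and each match to the CCAAT box, on either strand. They lie at chrX:69761633-69761932 (plus strand) for Kif4a, chr2:33644193-33644492 (minus) for Cenph, chr3:134852453-134852752 (minus) for Ncaph and chr10:84473044-84473343 (minus) for Top2a.
Kif4a: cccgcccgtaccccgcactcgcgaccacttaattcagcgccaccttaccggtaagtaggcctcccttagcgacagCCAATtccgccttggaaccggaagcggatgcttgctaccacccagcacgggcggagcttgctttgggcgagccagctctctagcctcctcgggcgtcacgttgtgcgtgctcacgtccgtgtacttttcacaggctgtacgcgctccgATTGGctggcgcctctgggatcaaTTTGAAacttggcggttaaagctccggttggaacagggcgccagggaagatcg
Cenph: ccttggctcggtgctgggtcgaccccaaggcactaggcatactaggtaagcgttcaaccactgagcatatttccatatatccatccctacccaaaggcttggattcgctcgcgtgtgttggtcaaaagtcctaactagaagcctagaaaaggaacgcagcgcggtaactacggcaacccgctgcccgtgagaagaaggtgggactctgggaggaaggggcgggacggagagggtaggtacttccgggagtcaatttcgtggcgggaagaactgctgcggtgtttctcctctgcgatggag
Ncaph: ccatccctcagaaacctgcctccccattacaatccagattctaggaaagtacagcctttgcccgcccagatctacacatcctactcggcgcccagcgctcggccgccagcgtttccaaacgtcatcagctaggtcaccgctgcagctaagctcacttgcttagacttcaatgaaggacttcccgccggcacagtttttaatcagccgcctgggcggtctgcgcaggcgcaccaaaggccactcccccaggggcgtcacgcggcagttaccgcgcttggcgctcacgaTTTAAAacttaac
Top2a: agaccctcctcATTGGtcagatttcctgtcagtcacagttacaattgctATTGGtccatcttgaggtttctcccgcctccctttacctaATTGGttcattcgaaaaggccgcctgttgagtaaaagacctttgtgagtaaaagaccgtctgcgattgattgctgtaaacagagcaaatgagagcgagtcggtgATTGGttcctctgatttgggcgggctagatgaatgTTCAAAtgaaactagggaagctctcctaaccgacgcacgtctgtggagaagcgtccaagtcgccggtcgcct
Kif4a has TTTGAA across its start, from 3 bases before it, and CCAAT boxes from 175 and 27 bases before it. Top2a has the core, read as TTCAAA on the gene's strand, from 22 bases before the start and 4 CCAAT boxes upstream. Ncaph has a TTTAAA from offset 37 after the start and no CCAAT box, and Cenph has no match in this window.

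Of the 45 members, 41 had a promoter entry. Aurkb, Cenpt, Incenp and Tpx2 had none. TTTGAA stood in 26 of the 41 (63.4%), beside 12.5% of the 9906 promoters of genes tested. TTTAAA, which is its own reverse complement, stood in 13 (31.7%), beside 9.33%. At least 1 of these cores was present in 34 members (82.9%), beside 19.9% of the promoters of genes tested and 29.7% of all 27457 promoters in the table. In the stretch from 50 bases before to 50 after the start it was present in 24 members (58.5%), beside 5.57%. CCAAT stood in 25 members (61.0%), beside 39.0%, and CCAAT together with a core in 21 (51.2%), beside 8.03%. The 34 members with a core had a median log2 fold change of 0.38, and the 7 without it 0.36. Of the 4 that rose, 3 had a core and Cenph had none. The words can overlap and are short, and a match is no evidence of binding.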

How the data were processed

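Poly(A) RNA of rBMECs was sequenced in 6 libraries, 3 Hcy and 3 Veh. The authors deposited whole-number read counts per gene, not normalized, with gene positions and lengths. The submitters' processing notes name fastp, HISAT2 2.2.1, StringTie 2.2.3, Cufflinks, featureCounts 2.0.6 and DESeq2 1.42.0. They and the study's methods name the build mRatBN7.2, whereas the deposited table names none and holds row names of an older assembly (AABR07), so positions are given as listed and were not joined to the GRCr8 promoters. The authors' own comparison table, with normalized values, log2 fold changes and p-values, was not used.

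The minimum for testing was 10 summed counts, which 14603 of 33566 genes met. They were tested with edgeR 4.0.16 in R 4.3.3, using TMM factors (0.977 to 1.02), quasi-likelihood test with the group as the only term, and Benjamini-Hochberg adjustment over all genes tested. A gene passed at an adjusted p of at most 0.05, and was differentially expressed where its log2 fold change also reached 1 or -1. The test gives no standard error, so the SE was derived as the absolute log2 fold change over the square root of the F statistic. The test was tried on simulated counts first. Depth was 14024997 to 16764584 counts, and 3 counts is 0.178 to 0.215 CPM. The chi-square per degree of freedom between libraries of a group was at least 5.77, so none was a duplicate. Mitochondrial genes held 3.94 to 4.81% of counts.

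The members and lists were chosen with earlier results of these data known. Named with library values were members that passed, the 2 of smallest p and the 1 of highest level per kilobase in each role. Cenpl, Cdc20, Tpx2, Aurka and Plk1 were given library values or ranges outside that rule. From each other list the genes that passed and that of smallest p were named, the S phase genes other than Mcm4 without library values. Alternatives were DESeq2 1.42.0, its size factors in edgeR, library totals, filterByExpr, no filter, unadjusted p, a prior count of 2, the replicate number as a block, and leaving out each library. Adding the row described as Cenpq was chosen after seeing the data.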

Additional observations from a re-analysis of the deposited data

How the results depend on the processing

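Over the 7 alternative fits that kept all libraries, 41 members were higher in Hcy each time. DESeq2 passed 604 genes (341 in the test reported), and without a count filter 109 were differentially expressed (71 reported). A replicate block in the fit gave 298 genes that passed (2.04%), among them 2 members, Kif4a and Ncaph, of which 1 was differentially expressed. Cenph had an adjusted p of 0.0688 and Top2a of 0.0608 by edgeR in that fit, which left 0 passing in the inner kinetochore, 1 in condensin and topoisomerase and 0 among cohesin genes (Smc1a 0.0667). Among S phase genes Mcm6 (0.0537) and Pcna (0.0571) were lost and Rrm2 (0.0192) was gained. The cause was not tested. No label says whether the numbers pair the samples, and the correlations do not settle it. Between libraries of the same number they were -0.0032, 0.169 and 0.0626. Hcy replicate 1 correlated best with Veh replicate 3, and Hcy replicates 2 and 3 with the Veh library of their own number. DESeq2 passed 5 members, beside 4.14% of all genes in that fit. It gave 1 pass in the outer kinetochore (Spc25), 1 among other spindle genes and 3 among mitotic entry regulators. FilterByExpr gave 1 among other spindle genes, library totals 2 and no filter 3 among mitotic entry regulators. At an unadjusted p of at most 0.05, 21 members were called.

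With a library left out, fewer samples entered each fit. The passing genes numbered 80 to 957, the differentially expressed genes 39 to 112, the members passing 0 to 8 and differentially expressed 0 to 3, the highest counts being without Veh replicate 3 (957, 112 and 8). By list, the passes were 0 to 2 for inner kinetochore, outer kinetochore, condensin and other spindle genes, 0 to 1 for mitotic kinases, spindle kinesins, other kinetochore, cohesin and anaphase-promoting complex genes, 0 to 3 for mitotic entry and 4 to 14 for S phase genes. The median of spindle kinesins was 0.37 to 0.49 and that of the spindle checkpoint 0.17 to 0.37. Direction reversed for Bub3 (-0.074 to 0.037) and Cdc20 (-0.32 to 0.038) without Veh replicate 3 and for Kif23 (-0.0012 to 0.13) without Veh replicate 1. Summed counts were 125 to 7443 a member, and their part in the precision of the smaller differences was not tested.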

Other observations

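The lists outside the members differed in how often a promoter held TTTGAA or TTTAAA. It was present in 15 of 20 other spindle and cytokinesis genes (75.0%), 9 of 11 mitotic entry regulators (81.8%) and 8 of 19 other kinetochore genes (42.1%). The shares were 3 of 11 for cohesin, condensin II and separase genes (27.3%), 4 of 14 for the anaphase-promoting complex (28.6%) and 2 of 16 for S phase genes (12.5%), beside 19.9% of the promoters of genes tested. These shares are descriptions of the sequence tables and were not tested.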
